A study of Homo sapiens with 12 samples.

Results

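Members of the pathway that carry signals from receptors to the transcription factor NF-kB were examined, 10 genes in all: the IkB kinases CHUK (IKK alpha) and IKBKB (IKK beta), the IKK-related kinases IKBKE and TBK1, the MAP3 kinases MAP3K14 (NIK) and MAP3K7 (TAK1), the MAP3K7 adaptor TAB2, and the TRAF adaptors TRAF1, TRAF2 and TRAF3. The 10 genes were taken by name, with every probe set that the array annotation assigns to a single gene. They were represented by 19 of the 54613 probe sets tested, which covered 9 of the 10 genes. TRAF2 had no single-gene probe set in the annotation used here and is not reported.

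NF-kB is held in the cytoplasm by IkB proteins. In the canonical route, TRAF adaptors at an occupied receptor recruit MAP3K7 with TAB2, MAP3K7 activates the IKK complex, and phosphorylated IkB is degraded. In the non-canonical route, a TRAF2 and TRAF3 complex keeps MAP3K14 unstable, and accumulated MAP3K14 acts through CHUK to process NFKB2. IKBKE and TBK1 relay signals of nucleic acid sensors to interferon regulatory factors, and IKBKE is amplified in some breast cancers.

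Expression was measured in 4 human lines that derive from SKBR-3, a breast cancer line with ERBB2 (HER2) amplification. SKR6LR is a population obtained by growing SKR6 over months under rising doses (0.2 to 5 µM) of lapatinib, which blocks the kinase activity of EGFR and HER2; the growth protocol also gives 0.2 µM lapatinib during culture, for a line spelled SKLR there. SKR6CA is SKR6 with a retrovirus for constitutively active p65 (RELA), SKR6-Vector is SKR6 with the empty pQCXIP retrovirus, both after puromycin selection, and SKR6, the parent of the other 3, is an SKBR-3 population with raised HER2. Each line had 3 arrays, called biological replicates by the labels, with RNA taken after 48 hours of culture. Whether SKR6CA and SKR6-Vector were clones or pools, and whether the replicates were separate derivations, is not given in the sources used here, so p-values measure the spread between these cultures.

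The median log2 value per array was 5.74 to 5.77. The SKR6LR arrays stood apart, with correlations of 0.926 to 0.944 with arrays of the other lines over all probe sets, against 0.988 to 0.990 between arrays of the other 3 lines. Their median replicate SD was 0.122, against 0.0865 in SKR6CA, 0.0755 in SKR6-Vector and 0.075 in SKR6. The actin controls, which read RNA quality as signal at the 3′ end minus signal at the 5′ end, gave 2.32 on SKR6LR replicate 3 and 1.03 to 1.73 on the 11 other arrays. Of 7 markers of HER2-positive luminal cells, 6 lay between 8.45 and 15.02 in all lines, while CDH1 lay between 4.14 and 4.41. In SKR6LR against SKR6, 3 of the 7 were lower, ERBB2 (12.45 against 13.83), GRB7 (8.88 against 10.16) and KRT19 (13.51 against 14.45), and 2 were higher, KRT8 and KRT18. Of the markers of other cell types, 1 of 6 fibroblast (COL3A1), 1 of 4 immune (CD14) and 2 of 4 endothelial genes (CDH5 and VWF) were called higher in SKR6LR than in SKR6. CDH5 was also called higher in SKR6CA (8.22) and SKR6-Vector (8.10) than in SKR6 (5.14). Their lists averaged 6.09 to 6.18, 5.04 to 5.12 and 6.35 to 6.43 per array in SKR6LR, against 5.35 to 5.38, 4.56 to 4.69 and 5.23 to 5.33 in SKR6. PTPRC, PECAM1, COL1A2, DCN and LUM were not called, and the part of these cell types in the results was not tested. In whole cultures, fewer cells of a type and less RNA per cell cannot be told apart.

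In SKR6CA against SKR6-Vector, 4 of the 19 probe sets were called higher and 0 lower at an adjusted p under 0.05 in limma, against 19.3% of all probe sets called in either direction and 9.14% called higher. The genes were IKBKE, TBK1 and TAB2. The share of all probe sets called lower was 10.2%. In SKR6LR against SKR6, 6 were higher and 2 lower, against 43.9% of all probe sets called, 19.0% higher and 25.0% lower; MAP3K14, MAP3K7, TRAF3 and CHUK were higher and TAB2 was lower. The share of members called, 21.1% and 42.1%, lay near the share of all probe sets in both comparisons. The median log2 difference over the 19 probe sets was 0.0258 in SKR6CA against SKR6-Vector, where that of all probe sets was 0.0106. In SKR6LR against SKR6 these medians were 0.0342 and -0.0454.

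**Figure D1:**
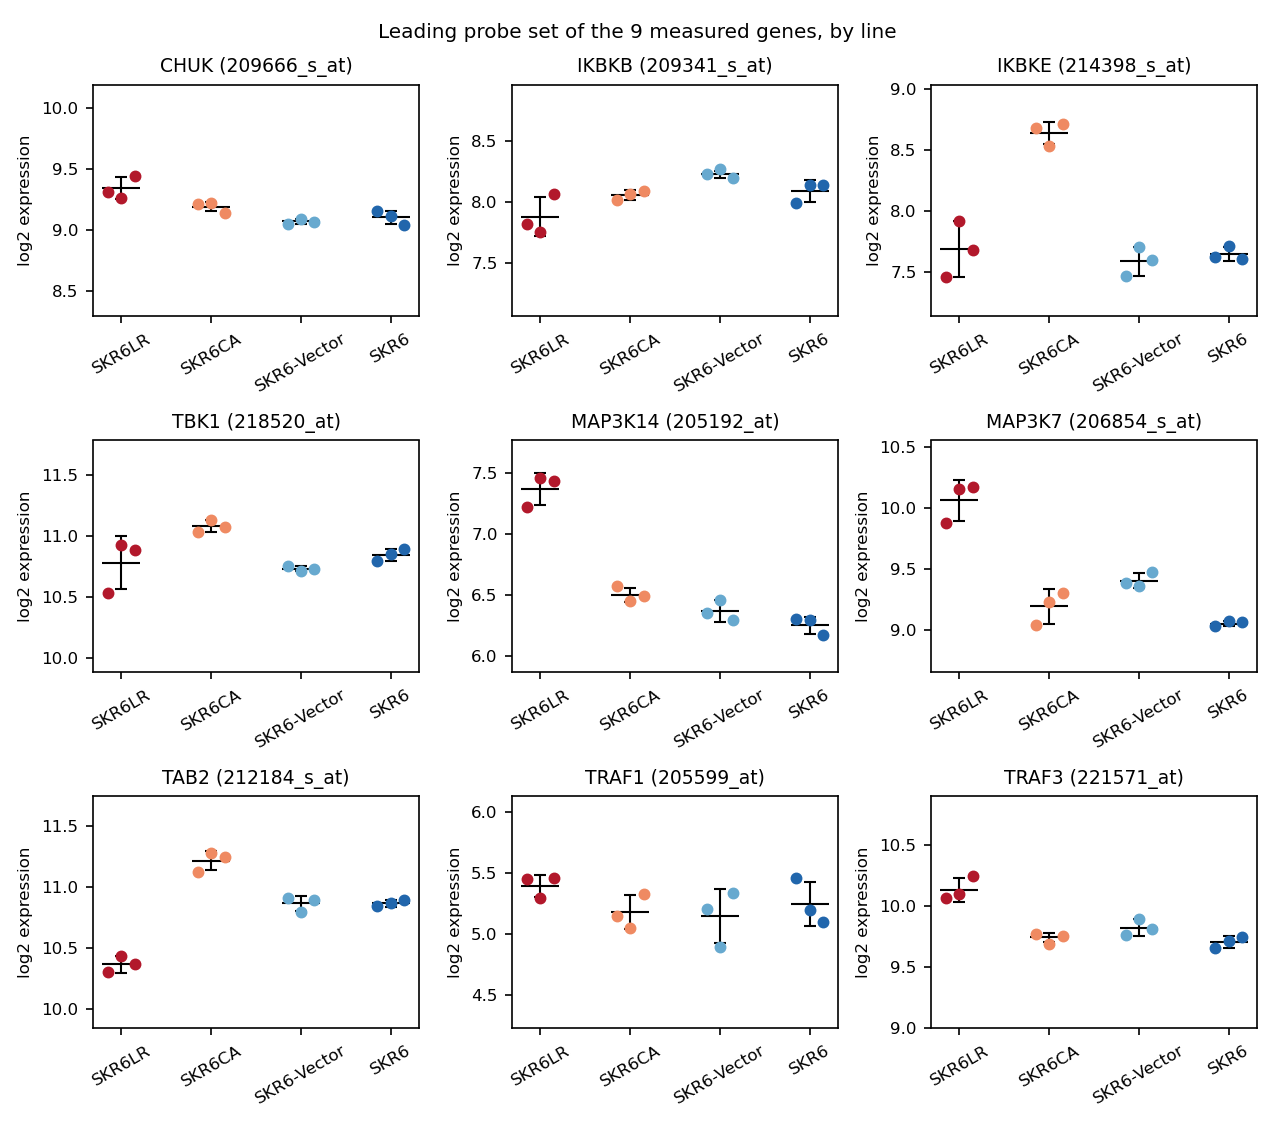
Log2 expression (y axis) of the leading probe set of each of the 9 measured genes on every array, by line (x axis); points are arrays, horizontal bars are means and whiskers are 1 SD (n = 3), and every panel spans the same range in log2 units. IKBKE stands out in SKR6CA at 8.54 to 8.72, and MAP3K14 in SKR6LR at 7.22 to 7.46.

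IKBKE, the IKK-related kinase known to be inducible, was the member that differed most with active p65. Its leading probe set, the one with the highest mean of a gene (214398_s_at), read 8.68, 8.54 and 8.72 in SKR6CA, against 7.47, 7.71 and 7.60 in SKR6-Vector. It read 7.46, 7.92 and 7.68 in SKR6LR and 7.63, 7.72 and 7.61 in SKR6. All 3 SKR6CA arrays thus lay above the 9 arrays of the other lines, and those 9 overlapped. The difference between SKR6CA and SKR6-Vector was 1.05 (SE 0.106, adjusted p = 1.4e-05), or 2.08-fold, and against SKR6 it was 0.99 (adjusted p = 3.51e-05). The second probe set, 204549_at, read 8.52, 8.31 and 8.52 in SKR6CA and 7.46 to 7.62 in SKR6-Vector, a rise of 0.92 (SE 0.132, adjusted p = 0.000262).

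IKBKE was not called in SKR6LR. Its difference from SKR6 was 0.034 on the leading probe set (adjusted p = 0.832), with a 95% interval of -0.20 to 0.26. On the second probe set the interval was -0.25 to 0.32. SKR6LR lay below SKR6CA by a difference of -0.96 on the leading probe set (adjusted p = 6.45e-06). In the order of levels SKR6CA came first, and SKR6LR, SKR6 and SKR6-Vector followed without a call between any of them. The 250 bases before the start of IKBKE are shown because this gene separated SKR6CA from the other lines. They come from RefSeq, build GRCh38.p14, chr1:206470226-206470475, plus strand, and hold no match on either strand to the degenerate kappaB consensus, the sequence pattern of NF-kB sites, or to an interferon-response core (GAAA, any 2 bases, GAAA), so no base is in capitals.
IKBKE: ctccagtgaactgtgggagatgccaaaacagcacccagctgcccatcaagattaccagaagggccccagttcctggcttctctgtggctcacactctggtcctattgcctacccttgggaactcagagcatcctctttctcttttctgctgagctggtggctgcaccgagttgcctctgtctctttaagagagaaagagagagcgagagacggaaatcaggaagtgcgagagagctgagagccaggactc

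TBK1, the close relative of IKBKE that is expressed in most tissues, showed a smaller difference in the same comparison. Its single probe set (218520_at) read 11.03, 11.13 and 11.07 in SKR6CA, against 10.75, 10.71 and 10.73 in SKR6-Vector. The groups did not overlap, and the rise was 0.34 (SE 0.0912, adjusted p = 0.0177), or 1.27-fold. The call was lost without SKR6CA replicate 2 or 3 or SKR6-Vector replicate 2 or 3, where the adjusted p reached 0.0665, although the difference stayed at 0.31 to 0.37 over all alternatives. Against SKR6, where TBK1 read 10.79, 10.85 and 10.89, the difference of SKR6CA was 0.23 (adjusted p = 0.11). SKR6LR read 10.53, 10.92 and 10.88, with replicate 1 the lowest of all 12 arrays and the line overlapping SKR6 and SKR6-Vector. TBK1 in SKR6LR differed from SKR6 by -0.0656 (adjusted p = 0.612; 95% interval -0.26 to 0.13).

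The catalytic IKK subunits had small differences. CHUK, the kinase of both NF-kB routes, read 9.31, 9.26 and 9.44 in SKR6LR, against 9.15, 9.11 and 9.04 in SKR6, without overlap. It rose by 0.23 (SE 0.065, adjusted p = 0.00966), or 1.18-fold. SKR6CA read 9.21, 9.22 and 9.14, touching the range of SKR6, and differed from SKR6-Vector (9.05 to 9.09) by 0.12 (adjusted p = 0.257; 95% interval -0.02 to 0.26). SKR6LR and SKR6CA, the top neighbours in the order, were not called different (0.15, adjusted p = 0.0934).

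IKBKB, the main kinase of the canonical route, had 3 probe sets, of which 0 were called in SKR6CA against SKR6-Vector or in SKR6LR against SKR6. The leading one (209341_s_at) read 7.82, 7.76 and 8.07 in SKR6LR and 7.99, 8.14 and 8.14 in SKR6, with overlap. Its difference was -0.21 (SE 0.0816, adjusted p = 0.0523; 95% interval -0.39 to -0.03). This value was past the threshold under 5 of 23 alternatives, among them the fits without SKR6 replicate 1 and without SKR6LR replicate 3. SKR6CA read 8.02 to 8.09 and SKR6-Vector 8.20 to 8.27, a difference of -0.17 (adjusted p = 0.187). The pair of SKR6LR and SKR6-Vector, at the ends of the order, was called, at -0.35 (adjusted p = 0.00321). A second probe set, 209342_s_at, had differences of 0.0179 and -0.0634 in the main comparisons, and the third, 211027_s_at, stayed at 3.97 to 4.38 on all arrays, below the array median.

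**Figure D2:**
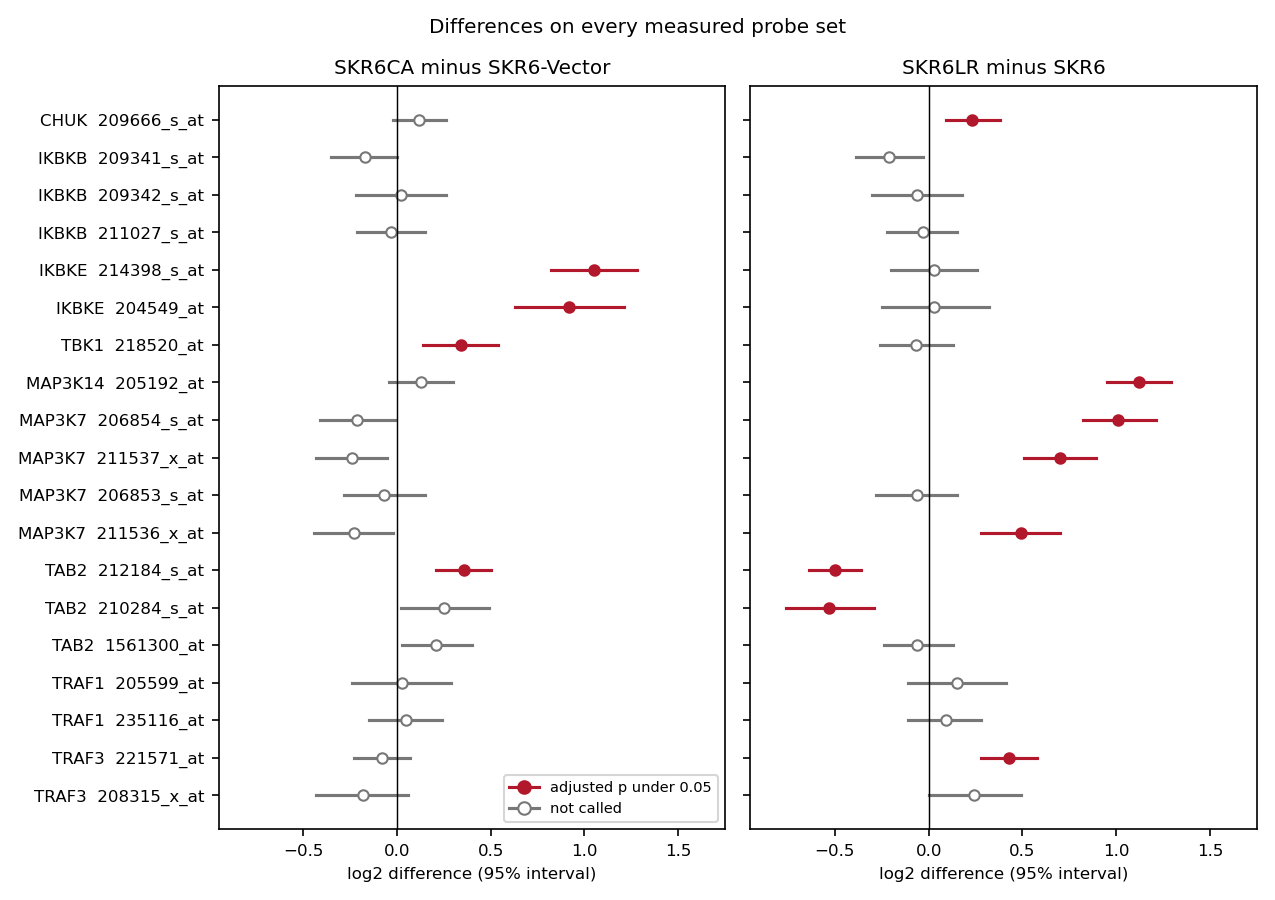
Log2 differences (x axis) of SKR6CA minus SKR6-Vector (left) and SKR6LR minus SKR6 (right) on each of the 19 probe sets (y axis), with 95% intervals; filled red points passed an adjusted p of 0.05. IKBKE has the largest difference on the left, 1.05, and MAP3K14 on the right, 1.12, while TAB2 lies above 0 on the left and below 0 on the right on its 2 brighter probe sets.

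MAP3K14, the kinase of the non-canonical route, had the largest difference of the 19 probe sets in SKR6LR. Its probe set (205192_at) read 7.22, 7.46 and 7.43 in SKR6LR, against 6.30, 6.29 and 6.17 in SKR6. The groups lay well apart, with a rise of 1.12 (SE 0.0789, adjusted p = 6.99e-08), or 2.17-fold. SKR6CA read 6.57, 6.45 and 6.49, and SKR6-Vector 6.35, 6.46 and 6.29. These lines overlapped at their edges, and the difference was 0.13 (adjusted p = 0.316; 95% interval -0.04 to 0.30). SKR6CA lay above SKR6 by 0.25 at an adjusted p of 0.0498, which was lost under 15 of 24 alternatives, where it reached 0.179. SKR6LR was above SKR6CA by 0.87 (adjusted p = 9.33e-07).

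MAP3K7, the kinase that activates the IKK complex in the canonical route, was higher in SKR6LR on 3 of its 4 probe sets. The leading one (206854_s_at) read 9.87, 10.15 and 10.17 in SKR6LR, against 9.03, 9.07 and 9.06 in SKR6, without overlap. It rose by 1.01 (SE 0.0903, adjusted p = 7.11e-07), or 2.02-fold. 211537_x_at rose by 0.70 (adjusted p = 1.86e-05) and 211536_x_at by 0.49 (adjusted p = 0.00101). The probe set 206853_s_at read 8.21, 7.82 and 8.23 in SKR6LR and 8.06, 8.13 and 8.26 in SKR6, with a difference of -0.0633 (adjusted p = 0.657; 95% interval -0.28 to 0.15). The interval of this probe set thus leaves out the differences of the other 3. Probe sets of the _s_at and _x_at kinds can match several transcripts, and all 4 belong to them. The transcripts that each one matches were not analysed here.

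MAP3K7 also differed between the control lines. SKR6-Vector read 9.38, 9.36 and 9.47 on the leading probe set, against the 9.03 to 9.07 of SKR6, a rise of 0.35 (SE 0.0903, adjusted p = 0.0163). 211537_x_at rose by 0.30 (adjusted p = 0.03). These were the 2 probe sets called in SKR6-Vector against SKR6, both higher, against 17.2% of all probe sets called, 8.29% higher and 8.94% lower. Without SKR6 replicate 1 or SKR6-Vector replicate 3 the number called was 0, and it was 1 without SKR6 replicate 3, SKR6-Vector replicate 1 or SKR6-Vector replicate 2. SKR6CA, at 9.04, 9.23 and 9.30, overlapped SKR6 and lay below SKR6-Vector, and was called different from neither (-0.21, adjusted p = 0.141, and 0.14, adjusted p = 0.367).

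**Figure D3:**
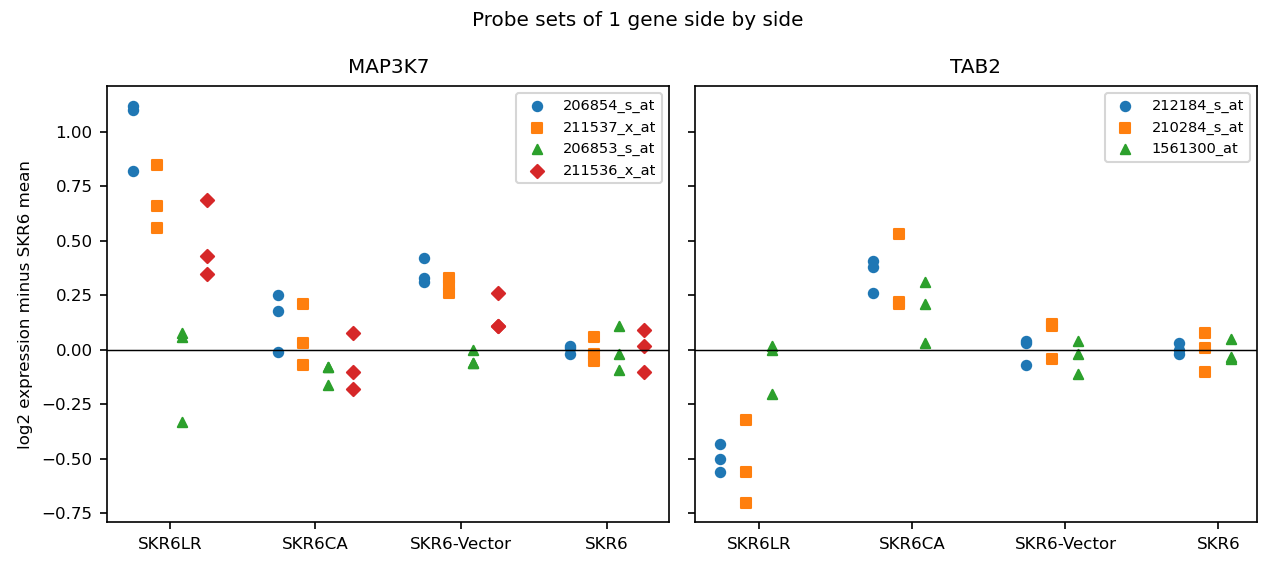
Log2 expression minus the SKR6 mean of the same probe set (y axis) for the 4 probe sets of MAP3K7 (left) and the 3 of TAB2 (right), by line (x axis); each point is an array. In SKR6LR, 206853_s_at of MAP3K7 and 1561300_at of TAB2 stay near 0 while the other probe sets of the same gene move away from it. The probe set 1561300_at reads 4.10 to 4.61, below the array medians, where differences are compressed.

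TAB2, the adaptor that ties MAP3K7 to ubiquitin chains on TRAF proteins, moved in opposite directions in the derived lines. Its leading probe set (212184_s_at) read 10.31, 10.44 and 10.37 in SKR6LR, against 10.85, 10.87 and 10.90 in SKR6. It fell by 0.50 on the log2 scale (SE 0.0667, adjusted p = 3.21e-05), and 210284_s_at fell by 0.53 (adjusted p = 0.00125). SKR6CA read 11.13, 11.28 and 11.25, against 10.91, 10.80 and 10.90 in SKR6-Vector, a rise of 0.36 (SE 0.0667, adjusted p = 0.00187). The rise against SKR6 was 0.35 (adjusted p = 0.00276). SKR6CA therefore stood above, and SKR6LR below, the overlapping arrays of SKR6-Vector and SKR6. On 210284_s_at the difference with active p65 was 0.25 (adjusted p = 0.136). The third probe set, 1561300_at, read 4.10 to 4.61 on all arrays, below the array medians, and was not called in either main comparison.

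TRAF3, the adaptor that restrains MAP3K14, was higher in SKR6LR. Its leading probe set (221571_at) read 10.06, 10.10 and 10.24 in SKR6LR, against 9.65, 9.71 and 9.74 in SKR6. The groups did not overlap and the rise was 0.43 (SE 0.068, adjusted p = 0.000151), or 1.35-fold. 208315_x_at had a difference of 0.24 (adjusted p = 0.102). SKR6CA, at 9.77, 9.69 and 9.75, overlapped SKR6-Vector, at 9.76, 9.89 and 9.81 (-0.0804, adjusted p = 0.52). TRAF3 was the member with a match to the kappaB consensus in the 250 bases before its start, among the 12 windows of 9 member genes in the RefSeq table; IKBKB was not in it. The match begins 33 bases before the start of the gene on its own strand and is in capitals. Of 35116 windows of this length 5.21% held the consensus and 3.02% the interferon-response core. The window is chr14:102777199-102777448 of GRCh38.p14, plus strand, and is shown because the match sets it apart from the windows of the other members. A match in letters is a description and not a site.
TRAF3: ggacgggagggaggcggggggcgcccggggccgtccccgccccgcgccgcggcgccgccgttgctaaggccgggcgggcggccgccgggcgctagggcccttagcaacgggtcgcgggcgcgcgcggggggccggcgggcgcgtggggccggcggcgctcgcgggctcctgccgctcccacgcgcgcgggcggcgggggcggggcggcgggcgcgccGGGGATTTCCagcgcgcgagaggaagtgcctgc

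TRAF1, an adaptor known as an NF-kB target in immune cells, was low in all lines. Its leading probe set (205599_at) read 5.45, 5.30 and 5.46 in SKR6LR, 5.15, 5.05 and 5.33 in SKR6CA, 5.21, 4.90 and 5.34 in SKR6-Vector, and 5.46, 5.20 and 5.10 in SKR6. All 4 lines overlapped. The difference between SKR6CA and SKR6-Vector was 0.0258 (adjusted p = 0.934; 95% interval -0.24 to 0.29), and that between SKR6LR and SKR6 was 0.15 (adjusted p = 0.36). 235116_at read 3.65 to 4.0. Both probe sets lay below the array medians, where the deposited values carry no detection call and differences are compressed.

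Set against SKR6 in place of SKR6-Vector, SKR6CA was higher on 4 of the 19 probe sets and lower on 0, against 16.6% of all probe sets called, 7.47% higher and 9.18% lower. They were both of IKBKE, 212184_s_at of TAB2 and that of MAP3K14. Both comparisons share the SKR6CA arrays. Set directly against each other, SKR6LR and SKR6CA differed on 12 of the 19 probe sets, 6 higher and 6 lower in SKR6LR, against 41.1% of all probe sets called, 18.4% higher and 22.7% lower. SKR6LR and SKR6-Vector differed on 9, 6 higher and 3 lower, against 41.7% of all, 19.0% higher and 22.8% lower.

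The effect in SKR6LR, measured against SKR6, was tested against the effect in SKR6CA, measured against SKR6-Vector. These 2 effects share no array. They differed on 10 of the 19 probe sets, 5 each way, against 36.2% of all probe sets called, 16.0% higher and 20.1% lower. Cyclic loess scaling moved the share of those calls that were higher to 54.7%, against 44.4% as deposited. The genes involved on their leading probe sets were MAP3K7 (1.22), MAP3K14 (0.98) and TRAF3 (0.51) with the larger difference in SKR6LR, IKBKE (-1.02) and TBK1 (-0.41) with the larger one in SKR6CA, and TAB2 (-0.86), which was lower in SKR6LR and higher in SKR6CA. The value of MAP3K7 includes the rise of SKR6-Vector over SKR6, 0.35. Set directly against SKR6CA, SKR6LR was higher in MAP3K7 by 0.87 (adjusted p = 3.42e-06). CHUK showed no detectable difference between the effects (0.11, adjusted p = 0.39; 95% interval -0.09 to 0.31), nor did IKBKB (-0.0382, adjusted p = 0.84) or TRAF1 (0.12, adjusted p = 0.634) on their leading probe sets.

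The genes around the 10 members were read on their leading probe sets, in 5 lists. In SKR6CA against SKR6-Vector, 5 of 26 other kinases and adaptors were higher and 3 lower, against 24.4% of all genes called, 10.6% higher and 13.8% lower. RIPK2, a kinase downstream of NOD receptors, rose by 0.78 (adjusted p = 0.028), BCL10 by 0.37 and MAP3K2 by 0.34. On other probe sets BCL10 was not called, at 0.25 on 1557257_at and -0.08 on 1557258_a_at. MAP3K3 fell by 0.38 and TRAF3IP2 by 0.29. Another MAP3K3 probe set, 203514_at, did not show the fall (-0.05, adjusted p = 0.752). Nor did 202987_at of TRAF3IP2 (0.10, adjusted p = 0.647), which read near or below the array medians. TRAF5 was called lower too, but read 4.38 to 4.60 in SKR6CA and 4.93 to 5.16 in SKR6-Vector, below the array medians, where a level above background is not shown. Of 23 receptors 3 were higher and 2 lower: the lymphotoxin receptor LTBR rose by 0.73 (adjusted p = 6.61e-05), and the TWEAK receptor TNFRSF12A by 0.21, while TLR5 fell by 0.82 and IL1R1 by 0.33. On 215561_s_at, which read below the array medians in both lines, IL1R1 was not called (0.20, adjusted p = 0.202). CD27, called higher, averaged 5.22 in SKR6CA and 4.79 in SKR6-Vector, below the array medians. LTBR in SKR6-Vector was itself lower than in SKR6, a difference of -0.38 (adjusted p = 0.00844). Its other probe sets, 243400_x_at, 232819_s_at and 1559458_at, were not called in SKR6CA against SKR6-Vector (0.19, 0.04 and -0.13). Of 10 ligands 2 were higher, TNF by 2.60 (adjusted p = 5.49e-06) and TNFSF9 by 0.58, and 0 were lower.

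Of 13 genes of the IKBKE and TBK1 branch 3 were higher and 1 lower. The adaptor AZI2, which binds both kinases, rose by 0.54 (adjusted p = 6.01e-05), and its 5 other probe sets had differences of 0.24 to 0.62, each called. IRF7, an interferon regulatory factor that both kinases phosphorylate, read 8.07, 8.15 and 8.16 in SKR6CA, against 7.22, 7.11 and 7.05 in SKR6-Vector, a rise of 1.00 (adjusted p = 0.00134). In SKR6 it read 7.84, 7.77 and 7.88, and SKR6-Vector lay below SKR6, at -0.71 (adjusted p = 0.0148). IRF3 rose by 0.47 against SKR6-Vector. The probe sets of the adaptor MAVS disagreed, with the leading one lower, at -0.43 (adjusted p = 0.000958), and 229741_at higher, at 0.32 (adjusted p = 0.0332). Of 14 subunits, IkB proteins and brakes 8 were higher and 1 lower, with RELB higher by 0.73, NFKBIA by 0.87 and TNFAIP3 by 2.84, and OTUD7B lower, at -0.49. The median differences of the kinases, receptors, ligands, IKBKE and TBK1 branch and subunits were 0.0433, 0.0997, 0.0266, 0.119 and 0.392, where the median of all genes was 0.00331. Of the 21 genes named here for SKR6CA against SKR6-Vector, 10 passed the test with that sign against SKR6 too, on their leading probe sets. The 21 were chosen by the first comparison and both comparisons use the SKR6CA arrays, so part of this agreement is built in. The matching share over all genes is not given here. For TNFRSF12A, which is among the 10, SKR6-Vector also lay above SKR6, by 0.34 (adjusted p = 0.0025). MAP3K3 was among the 10, while its probe set 203514_at was at 0.01 against SKR6 (adjusted p = 0.946). The 11 not called against SKR6 were MAP3K2, TRAF5, TRAF3IP2, CD27, IL1R1, TLR5, TNFSF9, IRF3, IRF7, MAVS and OTUD7B. Among them the vector line itself stood apart from SKR6 in TLR5 (0.70 in SKR6-Vector against SKR6, and -0.12 in SKR6CA against SKR6), OTUD7B (0.51 and 0.02), MAP3K2 (-0.29 and 0.05), IRF3 (-0.28 and 0.19) and IRF7 (-0.71 and 0.29). Over the lists, 5 of the kinases and adaptors were higher in SKR6CA than in SKR6 and 2 lower, against 21.7% of all genes called, 8.87% higher and 12.9% lower. There were 4 receptors higher, 1 ligand higher, 2 genes of the branch higher (TANK by 0.49 and AZI2 by 0.39), and 8 of the subunits, IkB proteins and brakes higher and 1 lower.

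In SKR6LR the largest difference among the listed genes was in TRAF5, an adaptor closely related to TRAF2 and TRAF3. Its leading probe set (204352_at) read 10.68, 10.20 and 10.56 in SKR6LR, against 4.81, 4.92 and 4.67 in SKR6. SKR6CA read 4.38 to 4.60, and SKR6-Vector 5.10, 4.93 and 5.16. The 3 SKR6LR arrays lay far above the other 9, and the rise over SKR6 was 5.68 (SE 0.117, adjusted p = 3.76e-13). Its second probe set, 1569861_at, read 3.57 to 3.93 on all arrays, with a difference of -0.06 (adjusted p = 0.649).

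Of the 26 other kinases and adaptors 9 were higher and 6 lower in SKR6LR, against 50.6% of all genes called, 20.8% higher and 29.8% lower. IRAK2, a kinase of the interleukin-1 route, rose by 1.43 and the MAP3 kinase MAP3K8 by 1.30, while MAP3K3 fell by 1.10, the adaptor TICAM1 by 0.77 and TRAF3IP2 by 0.44. Of the 23 receptors 5 were higher and 5 lower. TNFRSF1B, the second TNF receptor, read 6.98, 9.44 and 8.28 in SKR6LR, against 5.06, 5.16 and 5.37 in SKR6 (3.04, adjusted p = 3.76e-05). The interleukin-1 receptor chains IL1R1 and IL1RAP rose by 1.93 and by 1.38, while TLR5 fell by 1.25, RELT by 0.48 and TLR2 by 0.37. Of the 10 ligands 6 were higher and 1 lower. IL1B rose by 3.44, TNF by 3.23 and IL1A by 2.60, and TNFSF9 fell by 0.57.

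Of the 13 genes of the TBK1 and IKBKE branch 7 were higher and 2 lower in SKR6LR, while TBK1 and IKBKE themselves were not called. The RNA sensors RIGI and IFIH1 rose by 3.76 and by 2.30, and OPTN, a TBK1-binding autophagy receptor, by 2.35. MAVS fell by 0.30 and TBKBP1 by 0.18. Of the 14 subunits, IkB proteins and brakes 9 were higher and 2 lower. RELB, the partner of processed NFKB2, rose by 1.79 (adjusted p = 1.56e-08), TNFAIP3 by 3.57 and NFKBIZ by 2.98. OTULIN, an enzyme that removes ubiquitin chains, fell by 0.62. It was also lower than in SKR6 in SKR6-Vector (-0.54, adjusted p = 8.19e-05) and in SKR6CA (-0.70, adjusted p = 1.25e-05). The probe sets of CYLD, another enzyme that removes ubiquitin chains, disagreed. The leading one and 39582_at were called lower, at -0.73 (adjusted p = 0.00354) and -0.63 (adjusted p = 0.00373). Probe set 60084_at was called higher, at 0.40 (adjusted p = 0.0106), but read 4.99 to 5.78 over all arrays, near or below the array medians. The remaining CYLD probe sets were not called. The median differences of the 5 lists, in the same order, were 0.0815, -0.0707, 0.607, 0.274 and 0.485, where that of all genes was -0.0579. NFKBIZ was also higher in SKR6-Vector than in SKR6, by 1.94 (adjusted p = 1.19e-05).

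**Figure D4:**
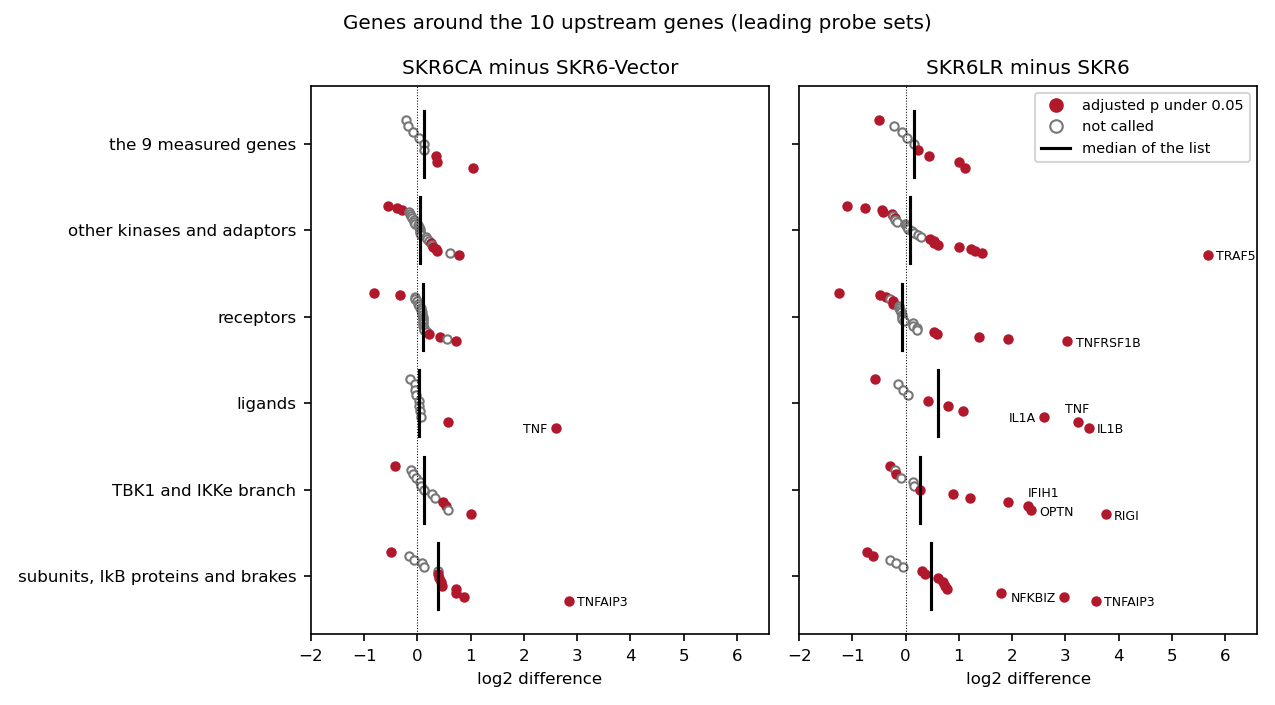
Log2 differences (x axis) of SKR6CA minus SKR6-Vector (left) and SKR6LR minus SKR6 (right) for the leading probe sets of the 9 measured genes and of 5 lists of surrounding genes (y axis); each point is a gene, filled red points passed an adjusted p of 0.05 and black bars are list medians. Called genes beyond 2 are named, TRAF5 at 5.68 being the farthest.

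In SKR6-Vector against SKR6, 3 of the 26 kinases and adaptors were higher and 2 lower, against 22.9% of all genes called, 11.2% higher and 11.7% lower. Of the receptors 3 were higher and 1 lower, of the ligands 0 were called, of the TBK1 and IKBKE branch 1 was higher and 2 lower, and of the subunits, IkB proteins and brakes 2 were higher and 1 lower. MAP3K8 rose by 1.10 (adjusted p = 1.4e-05) and TAB3, a relative of TAB2, by 0.55. TANK, the adaptor of TBK1 and IKBKE, rose by 0.62 (adjusted p = 0.0068). MAP3K8 was higher than in SKR6 in all 3 derived lines, at 7.88, 8.20 and 8.41 in SKR6LR, 8.13, 8.18 and 8.23 in SKR6CA, and 7.85 to 8.06 in SKR6-Vector, against 6.82, 6.83 and 6.94 in SKR6. On its other probe set, 205027_s_at, the rises over SKR6 in these lines were 2.42, 1.43 and 0.77, each called. There SKR6LR also lay above SKR6CA, by 0.99 (adjusted p = 0.00504), while on the leading probe set that difference was -0.01 (adjusted p = 0.939). TAB3 was called higher in all 3 derived lines as well on its leading probe set, by 1.23 in SKR6LR and by 0.71 in SKR6CA. Its other probe sets, 1558518_at, 1552928_s_at and 1552927_at, were called higher in SKR6LR only. Their differences from SKR6 were 0.39, 0.68 and 0.35 in SKR6-Vector and 0.10, 0.64 and 0.20 in SKR6CA, none called. The spread that the lines share in the fit includes that of SKR6LR, where the SD of OPTN was 0.70. On this leading probe set OPTN was not called in SKR6-Vector against SKR6 (0.46, adjusted p = 0.233). Yet SKR6-Vector (9.34 to 9.43) and SKR6 (8.90 to 8.98) did not overlap, and 202073_at was called (0.82). Counts in comparisons without SKR6LR may thus be low for genes uneven in SKR6LR.

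Likeness of pattern was read as Pearson's correlation over the 12 arrays, for the 3 members whose line means spanned at least 1 on the log2 scale, among 4006 genes with such a span. The points share their arrays and lines, so these values are a description. IKBKE was most like ITPRIPL2 (r = 0.979), DNAAF1 (0.971) and the chemokine CCL20 (0.971). MAP3K14 was most like BHLHE40 (0.992), TRIM22 (0.991) and ARHGAP28 (0.991). MAP3K7 was most like BLNK (0.989), ZNF805 (0.988) and EXOC1 (0.985). Each was higher in SKR6-Vector than in SKR6CA in its line mean, as was MAP3K7 (9.40 and 9.19). The choice by likeness to MAP3K7 favours genes with this order.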

How the data were processed

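RNA of 12 cultures was copied from oligo-dT, labelled with biotin in a T7 reaction and read on 3′ expression arrays, per the labels' protocols. The deposited values are on a log2 scale. The submitters' processing notes name robust multi-array averaging (RMA) and limma; versions, parameters and genome build were not given in the sources used here. RMA equalises the distributions of the arrays, so levels are relative, and small signals are compressed. The number of arrays limits the precision.

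Of 54675 probe sets 62 were controls, and the other 54613 were tested. The platform annotation gave 1 gene symbol to 41091 of these (19775 genes) and several symbols to 1801, and 11777 of the 54675 were unnamed here. Gene IDs of 41043 were found in a RefSeq table (GRCh38.p14), whose symbols were used. The leading probe set of a gene had its highest mean over the arrays. The test was limma 3.58.1 (R 4.3.3; lmFit, eBayes) on all 12 arrays with 1 mean per line, so that the lines share 1 estimate of spread on 8 residual degrees of freedom. Adjustment was by Benjamini and Hochberg over the 54613, with a call at 0.05. The fit was tested on simulated data with 1 spread per probe set in all lines. That test does not cover the wider spread of SKR6LR.

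The members and lists were chosen with earlier results of these data known. Every member was named. Of each of 5 lists and for each comparison, at most 3 called genes with the largest rise and 3 with the largest fall, without overlap of arrays, could be named, and for likeness the 3 best correlated genes. Values of TAB3, MAP3K8 and OTULIN in other lines, of IRF7 in SKR6, and of RIPK2 by culture were picked after they were seen. So were those of OPTN in SKR6-Vector and of the named genes against SKR6. The same holds for other probe sets of AZI2, MAVS, CYLD, MAP3K3, MAP3K8, TAB3, TRAF3IP2, IL1R1, BCL10 and LTBR. RIPK1, BIRC3, IRAK4, TICAM2, UBE2V1, TNFSF12, CD40LG, BCL3 and CD68 are not analysed here. Alternatives covered blocking by replicate number, omission of single arrays, cyclic loess, median centring, trended robust variances, weights by array or line, a fit to the compared arrays alone, removal of probe sets with low values, 1 value per gene (leading or mean), omission of _x_at and _s_at probe sets, and a threshold of 0.01.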

Additional observations from a re-analysis of the deposited data

Results flagged for a closer look

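The effect in SKR6LR against SKR6 and the effect in SKR6CA against SKR6-Vector differed in the test of the difference itself on 10 probe sets, given here as the SKR6LR effect minus the SKR6CA effect on the log2 scale. For MAP3K7 it was 1.22 on 206854_s_at, 0.94 on 211537_x_at and 0.72 on 211536_x_at, for MAP3K14 0.98 and for TRAF3 0.51 on 221571_at. For IKBKE it was -1.02 on 214398_s_at and -0.89 on 204549_at, and for TAB2 -0.86 on 212184_s_at and -0.78 on 210284_s_at. For TBK1 it was -0.41, at an adjusted p of 0.0247 that reached 0.19 among the alternatives and was lost under 5 of 23, among them cyclic loess and the fits without SKR6 replicate 3, SKR6-Vector replicate 2 or SKR6CA replicate 2. The MAP3K7 values include the rise of SKR6-Vector over SKR6, called on 206854_s_at (0.35) and 211537_x_at (0.30).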

How the results depend on the processing

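Of 28 called differences of the members over the 4 comparisons and the difference between effects, 23 stayed called in the same direction under every one of the alternatives in which the probe set was present, and 0 reversed. The 5 others were TBK1 in SKR6CA against SKR6-Vector and in the difference between effects, MAP3K14 in SKR6CA against SKR6, and both MAP3K7 probe sets called in SKR6-Vector against SKR6. Of 67 differences not called, 58 were called under no alternative. Leaving out each array gave 3 to 5 called probe sets in SKR6CA against SKR6-Vector, 8 to 9 in SKR6LR against SKR6, 0 to 2 in SKR6-Vector against SKR6, 3 to 5 in SKR6CA against SKR6 and 9 to 11 in the difference between effects. With the replicate number as a block these counts were 4, 8, 2, 3 and 10. No shared signal by number was seen: deviations from line means correlated at -0.1 to 0.08 between same-numbered arrays and at -0.09 to 0.13 between others. Whether same-numbered cultures were handled together cannot be told from these values. Alternatives that drop or merge probe sets change the number measured, so shares were compared. In SKR6CA against SKR6-Vector the filter on low values gave 5 of 15, 1 probe set per gene 3 of 9 and the mean per gene 4 of 9; in SKR6CA against SKR6 these were 5, 3 and 3. In SKR6LR against SKR6, 1 probe set per gene gave 6 of 9. On the leading probe sets of all genes, the main fit called 24.4%, 21.7% and 50.6% in these comparisons, in the order given. Shares over all features under the alternatives are not given here. In SKR6-Vector against SKR6, 0 of 19 passed an adjusted p under 0.01, and 0 of 7 without _x_at and _s_at probe sets. Cyclic loess gave 54.7% of the calls of the difference between effects as higher, over all probe sets, against 44.4% without it. Of 595 counts over the pathway lists, 73 moved by over 1.5 times.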

Other observations

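The 3 SKR6LR cultures differed from each other in pathway genes. Of the 36 pathway list genes called higher in SKR6LR than in SKR6, 27 (75%) were lowest on replicate 1 and highest on replicate 2, against 37.8% of all 4116 genes called higher and 22.2% of all 19775 genes. Over these 36 genes replicate 2 exceeded replicate 1 by a median of 0.88 on the log2 scale, against 0.12 over all genes called higher. RIGI read 9.96, 11.40 and 11.39 on replicates 1, 2 and 3, TNF 8.73, 10.07 and 9.54, and RIPK2 9.94, 11.28 and 10.64. IKBKE, TBK1, MAP3K14 and TAB2, 4 of the 9 measured members, showed the same order of arrays, with replicate 2 above replicate 1 by 0.46, 0.39, 0.24 and 0.14. TRAF5 did not, at 10.68, 10.20 and 10.56. The 3′ minus 5′ difference of actin was 1.19, 1.03 and 2.32 on these arrays, and its part in the pattern was not tested. These values were looked for after the data were seen.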
